A study of Mus musculus with 5 samples.

Results

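10 transcription factors that set epithelial against mesenchymal identity were followed through single cells of pancreatic tumours from mice of 2 genotypes. The set was given as a list of 10 names defined by function, proposed with earlier results of these data known, and all 10 were found among the 12579 genes shared by the 2 deposited tables. They comprised 7 factors that drive epithelial to mesenchymal transition (EMT), namely Zeb1, Zeb2, Snai1, Snai2, Twist1, Twist2 and Prrx1, and 3 factors that keep epithelial identity, namely Grhl2, Elf3 and Klf5. The KPPC tumours have lost both copies of Trp53 through Pdx1-Cre, which acts in the epithelial lineage of the pancreas and not in its stroma. The KPPCN tumours share the alleles of KPPC and also lack Nsdhl, which encodes a sterol dehydrogenase of late cholesterol synthesis, so that the model differs from its control in this 1 deletion and holds no mice with intact Trp53. Tumours were advanced and came from mice 7 to 8 weeks old. CD45-positive cells, which are leukocytes, and dead cells were depleted before loading on droplets with 3′ end counting of unique molecular identifiers (UMIs). The labels give 3 mice of each genotype, and 3 KPPC libraries (named C3, D3 and H2) and 2 KPPCN libraries (1 and 2) were analysed here, each taken as 1 tumour. Levels are given in the order C3, D3 and H2 for KPPC and 1 and 2 for KPPCN.

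EMT is the process by which epithelial cells lose their junctions and polarity and take on the shape and motility of mesenchymal cells. ZEB1, ZEB2, SNAI1 and SNAI2 are zinc finger proteins that bind E-box sequences in promoters of junction genes such as Cdh1 and repress them, and TWIST1 and TWIST2 are basic helix-loop-helix proteins. PRRX1 is a homeobox protein of mesenchyme. On the other side, GRHL2 is a grainyhead protein that keeps junction genes active and opposes ZEB1, ELF3 is an ETS factor of simple epithelia, and KLF5 is a Krüppel-like factor that supports the identity and growth of well differentiated pancreatic carcinoma. Several of the EMT factors are also normal genes of fibroblasts, pericytes or endothelium, which makes the cell class in which they are measured matter.

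Promoters are shown to make the sequence read by ZEB and SNAIL proteins visible in a member of each kind and in a pair of their known target genes whose transcripts fell in KPPCN (below). The sequences are from RefSeq on GRCm38.p6, written 5′ to 3′ on the gene's own strand, end at the base before the gene's start, and carry the E-box in capitals as CACCTG or CAGGTG, which are the same site on opposite strands.
Elf3, chr1:135258569-135258722, minus strand: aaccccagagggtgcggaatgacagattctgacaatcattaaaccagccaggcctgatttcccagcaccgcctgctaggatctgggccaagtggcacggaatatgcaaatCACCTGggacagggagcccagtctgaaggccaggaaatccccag
Snai1, chr2:167537945-167538194, plus strand: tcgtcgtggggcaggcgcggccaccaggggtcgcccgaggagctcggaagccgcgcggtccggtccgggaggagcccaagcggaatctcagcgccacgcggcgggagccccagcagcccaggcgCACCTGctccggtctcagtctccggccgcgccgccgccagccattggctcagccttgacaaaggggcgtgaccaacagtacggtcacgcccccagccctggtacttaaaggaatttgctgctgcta
Cldn4, chr5:134946935-134947184, minus strand: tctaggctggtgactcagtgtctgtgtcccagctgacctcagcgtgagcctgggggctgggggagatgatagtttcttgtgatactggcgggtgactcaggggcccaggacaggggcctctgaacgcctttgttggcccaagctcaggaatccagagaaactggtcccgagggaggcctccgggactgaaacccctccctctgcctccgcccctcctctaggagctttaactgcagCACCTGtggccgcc
Epcam, chr17:87635729-87635978, plus strand: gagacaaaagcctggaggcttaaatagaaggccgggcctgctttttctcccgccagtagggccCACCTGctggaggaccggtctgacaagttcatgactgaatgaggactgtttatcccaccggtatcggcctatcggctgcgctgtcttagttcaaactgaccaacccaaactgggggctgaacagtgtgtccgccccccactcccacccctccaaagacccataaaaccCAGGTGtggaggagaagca
The Elf3 stretch is shorter because it stops at the annotated start of the gene. Both Elf3, which keeps epithelial identity, and Snai1, which represses it, held 1 such site, and Epcam held a pair. Among the members 6 had a promoter entry, and Elf3 and Snai1 were the 2 with the site in the 250 bases before a start, searched on both strands. Of the list of epithelial genes repressed by ZEB or SNAIL proteins or kept on by GRHL2, 15 of 24 genes matched an entry, and 10 of these 15 held it (66.7%), against 19.4% of 27025 genes. Some genes have several, partly overlapping promoters, and by promoter the counts were 12 of 20 (60%) against 5657 of 32851 (17.2%). The grainyhead motif (AACC, any base, then GTT), also searched on both strands, was in 1 of these 20 promoters, that of Rab25, and in 1.79% of all promoters. A match describes the letters in this window and is no measurement of binding. No entry was used for Zeb1, Snai2, Grhl2 and Klf5. On GRCm38 the gene of Klf5 spans chr14:99298691-99315036 and that of Grhl2 chr15:37233036-37363569, both on the plus strand, and Elf3 spans chr1:135253575-135258568 on the minus strand (GENCODE).

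The 5 libraries held 16875 cells after filtering, between 2011 and 5323 each. KPPCN 1 stood apart in depth, with a median of 2216 UMIs per cell against 17355 to 21799 in the other libraries, and 27 barcodes occurred in 2 libraries. The KPPC table appeared to have been filtered gene by gene within each library: 1166 of its genes were exactly 0 in at least 1 whole library, while every other gene was found in at least 37 cells. Such zeros were taken as not measured, which removed Snai2 from KPPC H2 and Twist2 from KPPC D3 and H2. Because a filter of this kind drops genes found in few cells, the levels left out may be low ones. Nsdhl itself read 15.5, 18.0 and 16.9 UMIs per 1000000 UMIs (CPM) in KPPC and 13.6 and 11.3 CPM in KPPCN 1 and 2, after scaling and over all cells (log2 difference −0.32, limma with Benjamini-Hochberg adjusted p = 0.313). On the same scale Nsdhl differed by 0.21 in the epithelial-like cells and 0.26 in the Cdkn2a/Hmga2 clusters described below. In tumour-lineage, fibroblast-like and mesothelial-like cells it differed by −0.57, −0.48 and −0.90, and none of these differences passed the test. Since 3′ counts need not fall in a deleted part, these values do not check the genotype. Xist, which is expressed from the inactive X chromosome, read 579 and 675 CPM in KPPC C3 and D3, was listed at 0 in KPPC H2, where every gene kept was found in at least 47 cells, and read 0.0373 and 0.0555 CPM in KPPCN 1 and 2. This marker of sex was thus high in 2 of 3 KPPC libraries and in neither KPPCN library. Its part in the results was not tested.

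Cell classes were rebuilt by clustering without the 10 members, since no annotation was used. Epithelial-like cells, which were defined by 12 markers that include Epcam, Krt19 and Cdh1, numbered 491, 793 and 488 in KPPC C3, D3 and H2 and 46 and 21 in KPPCN 1 and 2. In them Epcam reached 648 to 1821 CPM and Cdh1 339 to 501 CPM. A further group of 3 clusters was led by Cdkn2a and Hmga2, lacked a class name by its markers, and held 284, 134, 63, 285 and 1140 cells in the same order. In these Cdkn2a/Hmga2 clusters Vim, the intermediate filament of mesenchymal cells, read 3227 to 5365 CPM against 304 to 1025 CPM in epithelial-like cells, Epcam read 1.47 to 108 CPM, and the fibroblast marker Dcn read 28.1 to 225 CPM. Both populations together are called tumour-lineage cells below as a working name, because no label or file marks the lineage of a cell. Nearly all cells of 1 of the 3 clusters (806 of 817) came from KPPCN 2, so that this cluster cannot be told apart from its library. Another of the 3 held 326 cells of KPPCN 2 against 42, 22, 7 and 25 of KPPC C3, D3 and H2 and KPPCN 1.

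Among the populations compared here, Elf3 and Grhl2, 2 of the 3 keepers of epithelial identity, were found mostly in epithelial ones. Clusters left without any name held 31.8, 46.1 and 35.2% of the cells of KPPC C3, D3 and H2 and 14.3 and 25.6% of KPPCN 1 and 2. Except for the insulin cluster described next, these are not ranked here or below. Elf3 reached a mean of 357 ± 40.6 CPM (SD, n = 5 libraries) in epithelial-like cells, from 302 CPM in KPPCN 2 to 406 CPM in KPPC H2, and 357 ± 14 CPM (n = 4) in a cluster led by insulin genes together with Krt7 and Epcam. It stood at 105 ± 34.3 CPM (n = 2) in acinar-like cells, which are the enzyme-secreting cells of the pancreas, at 11.4 ± 12.1 CPM in the Cdkn2a/Hmga2 clusters and at 6.54 ± 4.63 CPM in fibroblast-like cells (both n = 5). The first pair did not differ beyond their spread, and acinar-like cells lay below both. Grhl2 was found in the same 3 populations: 15.5 ± 2.85 CPM in epithelial-like cells (n = 5), 16.6 ± 0.57 CPM in acinar-like cells (n = 2) and 12.7 ± 1.92 CPM in the insulin cluster (n = 4). Epithelial-like libraries overlapped both of the others, and no other named class had a mean above 1.59 CPM. Grhl2 was at 0.233 ± 0.20 CPM in the Cdkn2a/Hmga2 clusters and 0.22 ± 0.20 CPM in fibroblast-like cells (both n = 5).

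Klf5 was graded rather than confined. It read 254 ± 23.2 CPM in epithelial-like cells (n = 5), 231 ± 43.7 CPM in the insulin cluster (n = 4) and 122 ± 15.9 CPM in acinar-like cells (n = 2). In the Cdkn2a/Hmga2 clusters it still read 86.0 ± 13.9 CPM, with 62.4 CPM as the lowest library, against 26.1 ± 10.9 CPM in mesothelial-like cells, which line the body cavity, and 9.01 ± 4.39 CPM in fibroblast-like cells (each n = 5). Thus the Cdkn2a/Hmga2 clusters held little Grhl2 and Elf3 yet kept Klf5 above every fibroblast-like and mesothelial-like library, a description with no test since clusters were made from the same cells.

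The EMT factors had classes of their own. Among named classes Zeb1 was highest in endothelial-like cells at 175 ± 32.8 CPM (n = 4) and T/NK-like cells at 144 ± 69.5 CPM (n = 2), which overlapped. It then read 70.4 ± 23.4 CPM in fibroblast-like cells, 43.7 ± 9.17 CPM in the Cdkn2a/Hmga2 clusters, 38.5 ± 6.09 CPM in mesothelial-like cells and 11.7 ± 2.24 CPM in epithelial-like cells (each n = 5). The Cdkn2a/Hmga2 and mesothelial-like values overlapped, and each epithelial-like library lay below every library of the other 3. Zeb2, its close relative, parted from it in endothelium, where it read 22.6 ± 18.9 CPM (n = 4). It was high in pericyte-like cells, the contractile cells around capillaries, at 266 ± 17.0 CPM (n = 3) and in fibroblast-like cells at 249 ± 32.6 CPM (n = 5), which overlapped. Mesothelial-like cells at 108 ± 11.3 CPM and the Cdkn2a/Hmga2 clusters at 107 ± 40.0 CPM overlapped as well, and epithelial-like cells had 18.7 ± 6.77 CPM (each n = 5).

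Twist1 stood above its fibroblast-like level in every library of the Cdkn2a/Hmga2 clusters. It read 83.5 ± 26.6 CPM there (n = 5), 64.3 ± 9.59 CPM in pericyte-like cells (n = 3), 35.1 ± 13.2 CPM in fibroblast-like cells and 28.7 ± 10.4 CPM in mesothelial-like cells (both n = 5). The first pair overlapped, the lowest Cdkn2a/Hmga2 library at 55.0 CPM lay above the highest fibroblast-like one at 51.4 CPM, and epithelial-like cells had 6.31 ± 3.08 CPM. Snai2 read 30.9 ± 13.3 CPM in pericyte-like cells (n = 2) and 13.3 ± 13.2 CPM in the Cdkn2a/Hmga2 clusters (n = 4), a spread set by KPPCN 2 at 33 CPM against 5.72 to 7.47 CPM in the other measured libraries. In fibroblast-like cells it read 10.2 ± 2.84 CPM (n = 4). Snai1 and Prrx1 were instead higher in stroma: Snai1 at 45.2 ± 20.2 CPM and Prrx1 at 239 ± 52.5 CPM in fibroblast-like cells, against 9.83 ± 4.64 and 98.6 ± 32.4 CPM in the Cdkn2a/Hmga2 clusters and 1.61 ± 1.69 and 4.96 ± 2.46 CPM in epithelial-like cells (each n = 5). Twist2 was the scarcest to measure, since it was lost from 2 of the 3 KPPC libraries, with 7.28 ± 2.62 CPM in fibroblast-like cells (n = 3) and 24.2 CPM in the pericyte-like cells of 1 library.

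**Figure D1:**
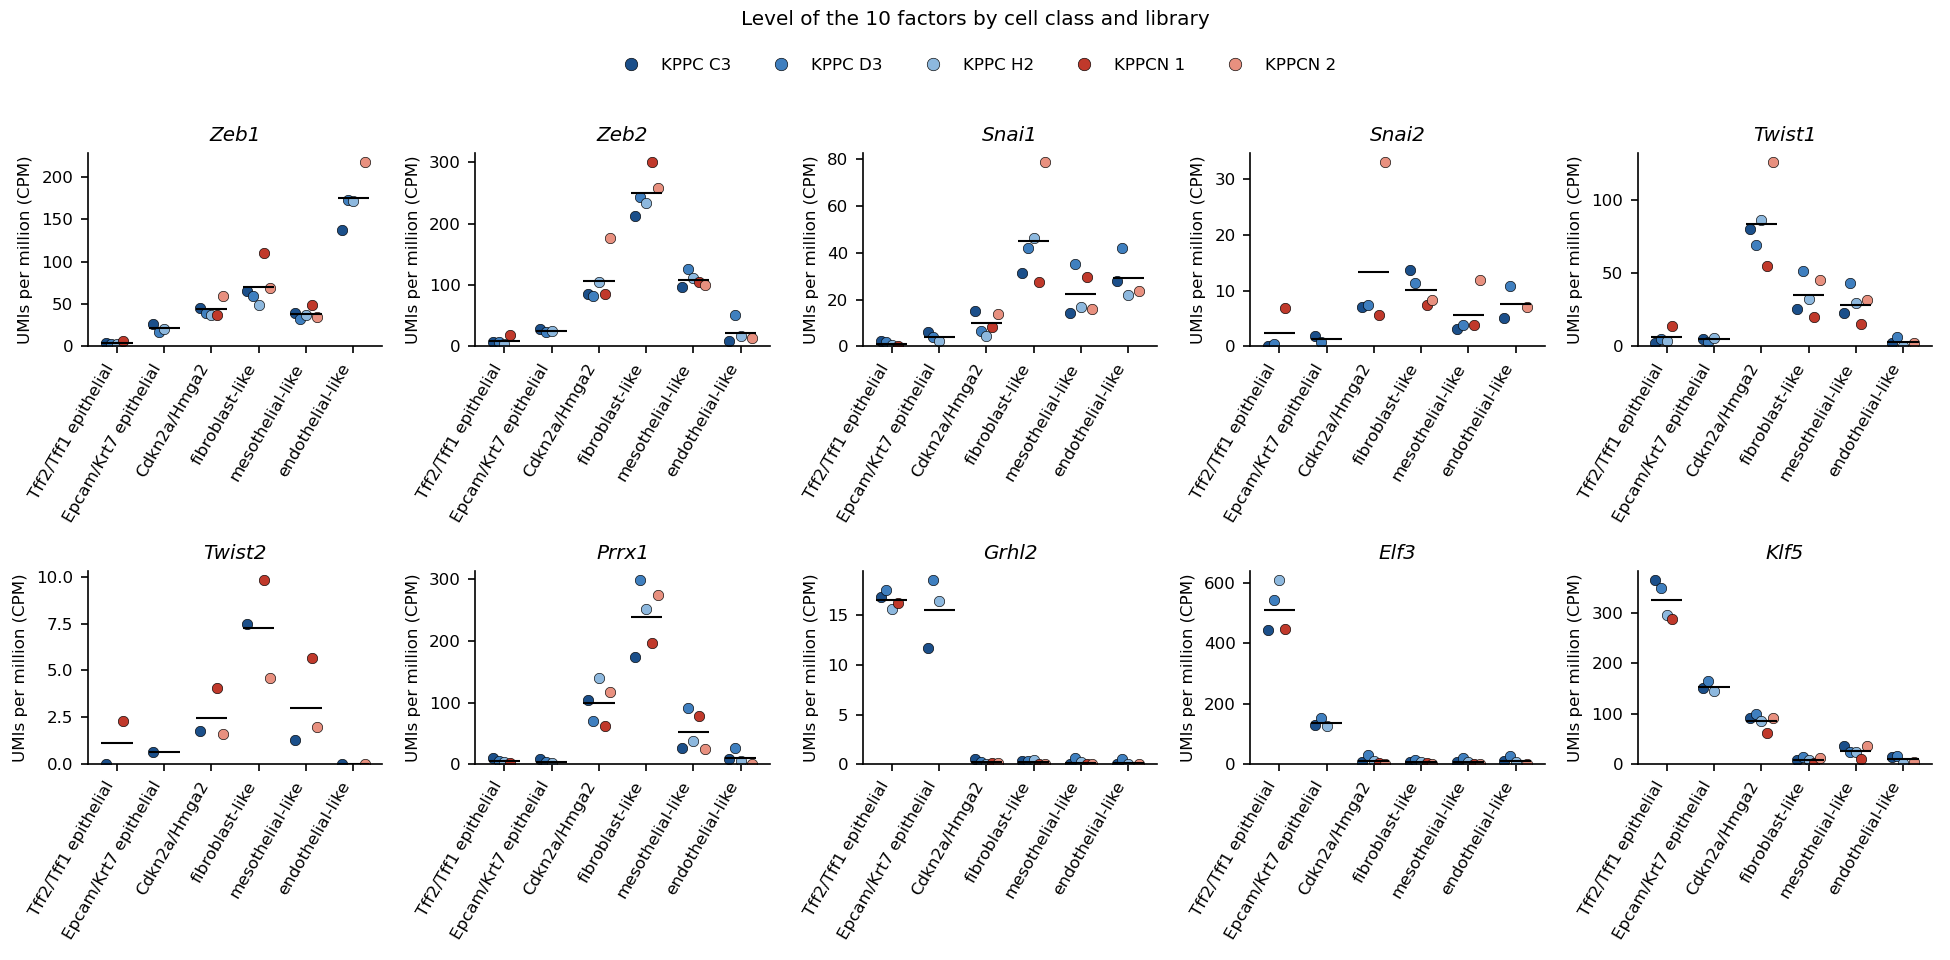
Level of each of the 10 factors by cell class, in CPM (vertical axis). Each point is 1 library with at least 20 cells of the class, coloured by genotype, and the line is the mean. Elf3 and Grhl2 stand high in epithelial populations and near 0 in the Cdkn2a/Hmga2 clusters, Klf5 keeps an intermediate level there, and Twist1 stands above its fibroblast-like level there.

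Epithelial-like cells were not uniform. A cluster led by the gastric trefoil genes Tff2 and Tff1 and a cluster led by Epcam and Krt7 each held enough cells of all 3 KPPC libraries to compare their levels within a tumour. Elf3 read 444, 543 and 608 CPM in the Tff2/Tff1 cluster of KPPC C3, D3 and H2 and 131, 153 and 126 CPM in the Epcam/Krt7 cluster. Klf5 read 364, 348 and 296 CPM in the first and 150, 164 and 145 CPM in the second. Both genes were thus lower in the Epcam/Krt7 cluster of each tumour, with no overlap. Grhl2 did not follow them, at 16.9, 17.5 and 15.7 CPM against 11.7, 18.5 and 16.5 CPM, with overlapping values. The ZEB pair ran the other way: Zeb1 read 3.67, 2.50 and 2.34 CPM in the Tff2/Tff1 cluster and 26.9, 17.5 and 20.1 CPM in the Epcam/Krt7 cluster. Zeb2 read 6.66, 6.96 and 4.41 CPM against 28.5, 22.8 and 24.4 CPM. The Epcam/Krt7 cluster was therefore the epithelial-like cluster with the higher ZEB levels in all 3 tumours while its Grhl2 was kept. In KPPCN 1, the one KPPCN library with enough cells of the Tff2/Tff1 cluster, Elf3 read 445 CPM, Klf5 288 CPM and Grhl2 16.2 CPM there, within or close to the range of the KPPC libraries. These contrasts are descriptions with no test.

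Over tumour-lineage cells as a whole the 3 factors that keep epithelial identity were lower in KPPCN, and the test passed for 2 of them. Klf5 read 186, 234 and 217 CPM in KPPC and 79.6 and 92.5 CPM in KPPCN 1 and 2. Grhl2 read 7.45, 15.2 and 14.3 CPM, from 207, 375 and 200 UMIs, against 1.84 and 0.295 CPM from 11 and 12 UMIs. In both genes each KPPCN library lay below every KPPC library, and Klf5 fell by 1.30 ± 0.17 (SE) on the log2 scale (limma, Benjamini-Hochberg adjusted p = 0.0415) and Grhl2 fell by 1.53 ± 0.26 (limma, adjusted p = 0.0491). All log2 differences here and below are KPPCN minus KPPC on log2(CPM + 5) after trimmed-mean scaling, which understates the change of a gene near or below 5 CPM such as Grhl2. Elf3 read 164, 306 and 364 CPM against 41.6 and 4.28 CPM, the widest gap of the 3, but its KPPCN libraries differed from each other by so much that it missed the threshold (log2 difference −3.74 ± 0.71, limma adjusted p = 0.0548).

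Across all 12423 genes tested in this population 3% were called at an adjusted p under 0.05, 54 higher and 319 lower, and 25.1% had both KPPCN libraries below every KPPC library. Of the 10 members 2 were called, both lower, and 3 lay below without overlap, the 3 keepers of epithelial identity. Both calls were near the threshold. Without KPPC D3, KPPC H2 or KPPCN 2 neither gene was called, and leaving out each library in turn moved the difference between −1.38 and −1.21 for Klf5 and between −1.75 and −1.31 for Grhl2. The makeup of the population moved with genotype as well: epithelial-like cells made up 63.4, 85.5 and 88.6% of it in KPPC C3, D3 and H2 and 13.9 and 1.81% in KPPCN 1 and 2, and the summed level of the 12 epithelial markers was 15285 to 26080 CPM in KPPC and 1480 to 8828 CPM in KPPCN, with none of the 12 at 0. Within epithelial-like cells alone the same 3 genes differed by −0.20 to −0.16 (below).

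**Figure D2:**
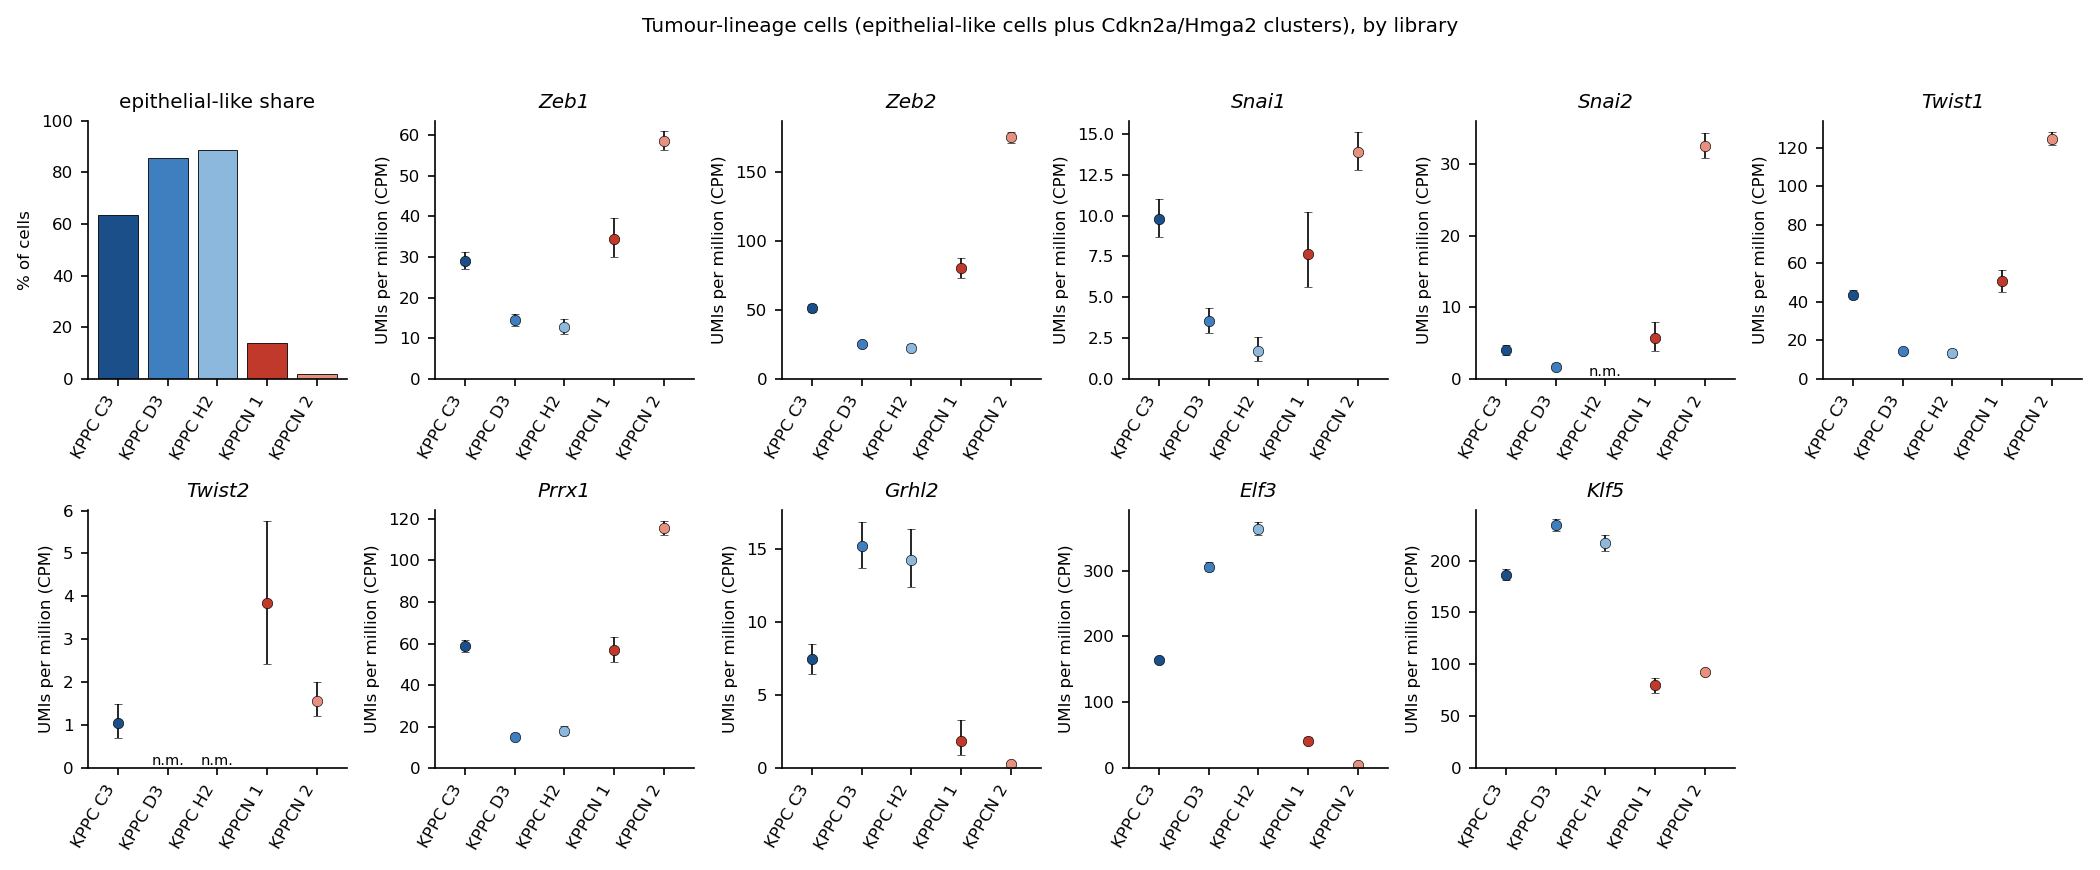
Share of tumour-lineage cells that are epithelial-like (percent, bars) and level of each factor over tumour-lineage cells (CPM, with exact Poisson 95% intervals, which cover counting error only) in the 3 KPPC and 2 KPPCN libraries; n.m. marks a gene not measured in a library. The share is 63.4 to 88.6% in KPPC and 13.9 and 1.81% in KPPCN, and Grhl2, Elf3 and Klf5 are lower in both KPPCN libraries than in every KPPC library.

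Of the 7 EMT factors none passed the test in tumour-lineage cells, and 5 lay above without overlap in KPPCN. Zeb2 read 51.2, 25.5 and 22.7 CPM in KPPC and 80.1 and 175 CPM in KPPCN 1 and 2 (log2 difference 1.73 ± 0.44, limma adjusted p = 0.0877). Zeb1 read 29.1, 14.5 and 12.8 CPM against 34.6 and 58.6 CPM (1.11 ± 0.36, limma adjusted p = 0.137). Twist1 read 43.8, 14.7 and 13.5 CPM against 50.7 and 125 CPM (1.67 ± 0.55, limma adjusted p = 0.142). In each of these the KPPCN libraries lay above all KPPC libraries and KPPCN 2 was highest. For Zeb1 and Twist1, but less so for Zeb2, KPPCN 1 came close to KPPC C3. Snai2 read 4.0 and 1.67 CPM in KPPC C3 and D3, the 2 KPPC libraries in its fit, and 5.68 and 32.6 CPM in KPPCN (1.42 ± 0.60, limma adjusted p = 0.231). Prrx1 read 58.8, 15 and 17.9 CPM against 56.8 and 116 CPM (1.45 ± 0.58, limma adjusted p = 0.192), and Snai1 9.79, 3.54 and 1.72 CPM against 7.68 and 13.9 CPM (0.70 ± 0.38, limma adjusted p = 0.305). For these last 2 genes KPPCN 1 fell within the KPPC range, so that the groups overlapped. Twist2 rested on 1 KPPC library, at 1.04 CPM against 3.84 and 1.57 CPM (0.28 ± 0.24, limma adjusted p = 0.514).

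The 5 EMT factors above without overlap, among them Snai2 with 2 KPPC libraries and Twist2 with 1, compare with 21.1% of all genes tested. The median difference of the 7 was 1.42, the value of Snai2, which moved between 0.45 and 2.23 when a library was left out, as Zeb2 did between 1.20 and 2.25 and Twist1 between 1.06 and 2.25. The median over all genes tested was 0.00033 and that of the 3 keepers was −1.53. Within KPPC the library with the smallest epithelial-like share, C3, also had the highest level of 5 of the 5 EMT factors measured in all 3 libraries and the lowest level of the 3 keepers. Summed fibroblast markers in tumour-lineage cells were 1554, 541 and 338 CPM in KPPC and 1691 and 1295 CPM in KPPCN 1 and 2, with none of the 10 at 0, and their part in the EMT factor levels was not tested.

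Shares of cells with at least 1 UMI were compared after each cell was thinned to 1000 UMIs, because of the shallow KPPCN 1 library. Klf5 was found in 19.2 ± 0.33% (SD, n = 3) of KPPC tumour-lineage cells and 8.00 ± 1.00% (n = 2) of KPPCN cells, and Elf3 in 22.0 ± 4.38% and 2.73 ± 3.01%. Grhl2 was found in 1.30 ± 0.15% and 0.304 ± 0.43%. Zeb2 was found in 3.01 ± 0.94% and 13.1 ± 3.86%, Prrx1 in 1.41 ± 0.79% and 8.48 ± 3.39%, Twist1 in 2.38 ± 1.31% and 8.54 ± 4.77%, and Zeb1 in 1.72 ± 0.77% and 5.67 ± 0.28%. In each of these 7 genes the groups did not overlap, and an exact permutation test (two-sided) returned p = 0.1, the smallest that 3 against 2 libraries allow (0.143 after Benjamini-Hochberg adjustment over the 10 members). Snai1 overlapped between the groups, with p = 0.4 in the same exact permutation test. Snai2, measured in 2 KPPC libraries, was found in 0.250 ± 0.19% and 1.90 ± 1.83% and did not overlap. Its exact permutation test returned p = 0.333, the smallest that 2 against 2 libraries allow. The Snai2 groups overlapped without thinning. Twist2, measured in 1 KPPC library, was found in 0% of its cells and 0.347 ± 0.37% of KPPCN cells, without overlap. Without thinning the shares were larger and kept these directions for the 7 genes, for example 85.7 against 63.6% for Klf5 and 31.8 against 74.0% for Zeb2. As a gauge of UMIs from free RNA, Elf3 was found in 0.0707 to 2.15% of thinned fibroblast-like cells by library, and Twist1 in 0 to 1.21% of thinned endothelial-like cells. In KPPCN 2 tumour-lineage cells Elf3 was found in 7 of 1159 thinned cells (0.604%), of which 6 were among the 21 epithelial-like ones.

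Within epithelial-like cells the picture differed from that of the whole tumour lineage. Elf3 read 338, 357 and 406 CPM in KPPC and 384 and 302 CPM in KPPCN 1 and 2 (log2 difference −0.16 ± 0.19, limma adjusted p = 0.790). Klf5 read 292, 260 and 233 CPM against 243 and 243 CPM (−0.16 ± 0.17, limma adjusted p = 0.761). Grhl2 read 15.1, 18.1 and 16.0 CPM against 17.5 and 10.9 CPM, the latter from 10 and 5 UMIs (−0.20 ± 0.25, limma adjusted p = 0.789). All 3 overlapped between genotypes, and none passed the test. The test here rested on 46 and 21 KPPCN cells, so that moderate differences were not detectable for scarce genes.

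Among the EMT factors in epithelial-like cells, 4 of the 6 tested lay above without overlap, and none was called. Zeb2 read 14.1, 14.8 and 12.7 CPM in KPPC and 27.9 and 23.9 CPM in KPPCN (0.67 ± 0.23, limma adjusted p = 0.441). Twist1 read 3.42, 4.34 and 4.65 CPM against 10.5 and 8.68 CPM, the latter from 6 and 4 UMIs (0.65 ± 0.27, limma adjusted p = 0.473). Snai2 read 0.683 and 0.579 CPM in the 2 measured KPPC libraries against 5.24 and 2.17 CPM, from 3 UMIs and 1 UMI. The KPPCN values of Twist1 and Snai2 thus rest on few UMIs. Zeb1 read 11.5, 9.70 and 9.78 CPM against 12.2 and 15.2 CPM (0.24 ± 0.25, limma adjusted p = 0.751), and Prrx1 overlapped at 9.19, 4.73 and 3.05 CPM against 3.49 and 4.34 CPM. Snai1 went the other way, at 3.72, 2.94 and 1.36 CPM against 0 UMIs in both KPPCN libraries, which allow up to 6.44 and 8.01 CPM (exact Poisson 95% limits, counting error only), so that a difference was not detectable at this depth. Of all 12095 genes tested in these cells 0.00827% were called, which was Xist alone, and 14.9% lay above and 21% below without overlap. The fibroblast marker sum was 308 to 1655 CPM in KPPC and 415 and 2037 CPM in KPPCN epithelial-like cells, and Vim was 1025 CPM in KPPCN 1 against 304 to 434 CPM in the other libraries.

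Within the Cdkn2a/Hmga2 clusters none of the 8 members tested was called. Klf5 read 91.5, 98.7 and 86.5 CPM in KPPC and 62.4 and 90.8 CPM in KPPCN 1 and 2 (log2 difference −0.28 ± 0.22, limma adjusted p = 0.842), with overlap. Elf3 read 6.50, 31.7 and 12.5 CPM against 5.35 and 0.87 CPM (−1.32 ± 0.49, limma adjusted p = 0.735) and was the 1 member without overlap, lower in KPPCN. Grhl2, with 8, 1 and 0 UMIs in KPPC and 1 and 7 UMIs in KPPCN, was too scarce to test. The epithelial marker sum in these clusters was 4678 to 7268 CPM in KPPC and 6512 and 1228 CPM in KPPCN 1 and 2, so that KPPCN 2 was lowest for Elf3 and for the markers alike.

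The EMT factors in the Cdkn2a/Hmga2 clusters were separated by library more than by genotype. Twist1 read 80.3, 69.8 and 86.5 CPM in KPPC and 55.0 and 126 CPM in KPPCN 1 and 2 (0.09 ± 0.33, limma adjusted p = 0.979). Zeb2 read 84.7, 82.2 and 105 CPM against 85.6 and 176 CPM (0.44 ± 0.31, limma adjusted p = 0.828), and Zeb1 44.9, 39.9 and 37.6 CPM against 36.9 and 59.1 CPM. In all 3 genes KPPCN 2 was the highest library and KPPCN 1 lay within or below the KPPC range. Prrx1 read 104, 70.1 and 140 CPM against 62.4 and 117 CPM, and Snai1 15.3, 6.70 and 4.62 CPM against 8.49 and 14.1 CPM, both with overlap. Without the cluster of which 806 of 817 cells came from KPPCN 2, an alternative chosen after the clusters were seen that kept 334 KPPCN 2 cells in the other clusters, Zeb1 and Zeb2 differed by 0.07 and 0.35 and no member was called. Of these KPPCN 2 cells 326 were in 1 cluster and 8 in the other, in which KPPC C3, D3 and H2 and KPPCN 1 had most of theirs (241, 109, 56 and 253 cells). This alternative thus still set unlike clusters against each other by library. In 1 cluster that 3 KPPC libraries and KPPCN 1 shared, Klf5 read 96.5, 91.8 and 96.6 CPM against 62 CPM (log2 difference −0.60, limma adjusted p = 0.552, the lone KPPCN library assumed to vary like the others). Of all 11428 genes tested in these clusters 0.00875% were called, again Xist alone, and 11.8% lay above and 10.6% below without overlap.

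**Figure D3:**
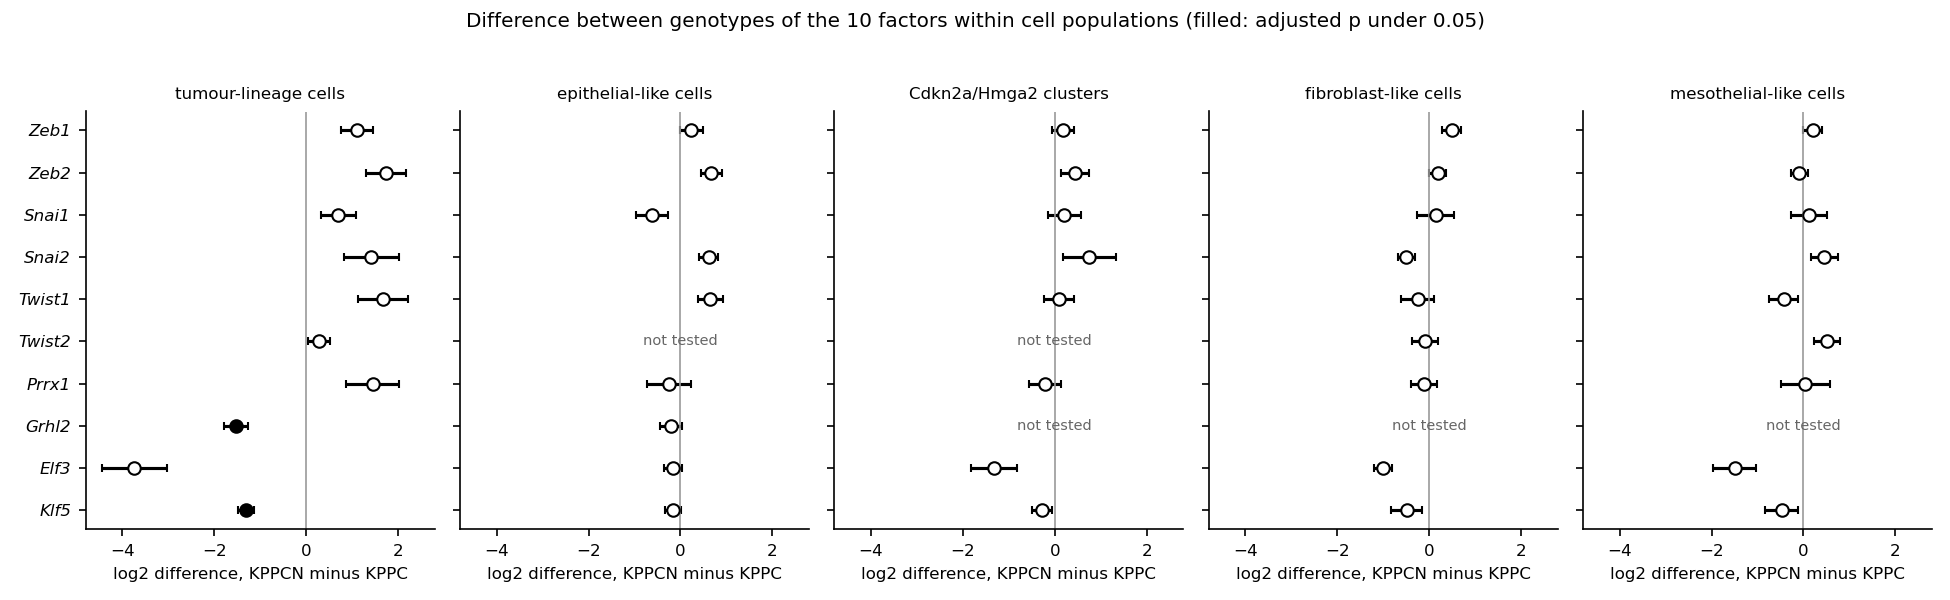
Difference between genotypes of each factor (log2 of CPM + 5, KPPCN minus KPPC, with SE) in 5 cell populations; filled points have a limma adjusted p under 0.05. Klf5 and Grhl2 in tumour-lineage cells are the filled points, and in epithelial-like cells the 3 keepers lie between −0.20 and −0.16.

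In fibroblast-like cells, where EMT factors are ordinary mesenchymal genes, no member was called. Zeb1 read 65.1, 59.0 and 48.7 CPM in KPPC and 110 and 69.3 CPM in KPPCN 1 and 2 (log2 difference 0.49 ± 0.20, limma adjusted p = 0.677). Zeb2 read 212, 243 and 234 CPM against 300 and 258 CPM (0.18 ± 0.18, limma adjusted p = 0.805). Both lay above in KPPCN without overlap, and in KPPCN 1 a cluster that drew 769 of its 785 cells from that library had 163 CPM of Zeb1. The leukocyte gene Ptprc read 27.8 CPM in KPPCN 1 fibroblast-like cells and 39.8 CPM in that cluster, against 0 UMIs in KPPCN 2, and it was not measured in KPPC. Its part in the Zeb1 value was not tested. Snai2 lay below, at 13.6 and 11.3 CPM in the 2 measured KPPC libraries and 7.41 and 8.36 CPM in KPPCN (−0.50 ± 0.19, limma adjusted p = 0.655). The Snai2 level of KPPC H2 was left out and may be low, so that the lack of overlap holds for the measured libraries alone. Snai1 read 31.4, 42.0 and 46.3 CPM against 27.6 and 78.6 CPM, Twist1 25.9, 51.4 and 32.8 CPM against 19.9 and 45.6 CPM, and Prrx1 173, 298 and 252 CPM against 196 and 274 CPM. These 3 overlapped, with KPPCN 1 below KPPCN 2 in each. Elf3 read 7.89, 13 and 7.60 CPM in KPPC against 3.02 and 1.19 CPM in KPPCN (−1.0 ± 0.20, limma adjusted p = 0.299), and the summed epithelial markers in the same cells were 451 to 633 CPM in KPPC and 239 and 112 CPM in KPPCN. The part of these epithelial transcripts in the Elf3 value was not tested. Of all 11784 genes tested 0.0509% were called, 12.9% lay above and 12.8% below without overlap.

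Mesothelial-like cells gave no called member either. Elf3 read 6.58, 19.9 and 6.21 CPM in KPPC against 0 UMIs in KPPCN 1, which allows up to 2.32 CPM, and 0.987 CPM from 1 UMI in KPPCN 2 (log2 difference −1.49 ± 0.47, limma adjusted p = 0.426). Of the 12 epithelial markers in the same cells 8 lay below and 3 above without overlap, with a median difference of −1.27, while their sum was 1918 to 2155 CPM in KPPC and 1910 and 2036 CPM in KPPCN. The part of these transcripts in the Elf3 value was not tested. Klf5 read 37.0, 24.4 and 23.6 CPM against 10.1 and 35.5 CPM, with overlap. Zeb1 read 39.5, 32.7 and 37.5 CPM against 48.4 and 34.5 CPM, Zeb2 97.5, 126 and 111 CPM against 105 and 99.7 CPM, and Twist1 22.7, 43.4 and 30.0 CPM against 15.7 and 31.6 CPM. All 3 overlapped. Snai2 was higher in KPPCN after scaling, from 3.07 and 3.79 CPM in 2 KPPC libraries to 3.77 and 11.8 CPM (0.46 ± 0.29, limma adjusted p = 0.599). Of all 11832 genes tested 0.0169% were called, 14.1% lay above and 18% below without overlap.

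Summed over all cells of a library the members had the same directions as in tumour-lineage cells for the keepers and the ZEB pair. In such sums fewer cells of a type and less RNA per cell cannot be told apart. Elf3 read 70.8, 133 and 139 CPM in KPPC and 16.4 and 4.71 CPM in KPPCN 1 and 2 (log2 difference −3.00 ± 0.45, limma adjusted p = 0.0662). Grhl2 read 3.25, 6.15 and 5.95 CPM against 0.55 and 0.339 CPM (−0.88 ± 0.16, limma adjusted p = 0.0871), and Klf5 81.9, 101 and 96.0 CPM against 25.4 and 76.9 CPM (−0.98 ± 0.41, limma adjusted p = 0.307). All 3 lay below without overlap and none was called. Zeb1 and Zeb2 lay above without overlap, Zeb1 at 46.8, 28.7 and 38.2 CPM against 68.2 and 57.3 CPM (0.67 ± 0.23, limma adjusted p = 0.249) and Zeb2 at 125, 105 and 107 CPM against 170 and 178 CPM (0.60 ± 0.17, limma adjusted p = 0.171). T/NK-like cells, in which Zeb1 was high, made up 24.6% of KPPCN 1, 0% of KPPCN 2 and 0.281 to 1.14% of KPPC cells, and outside leukocyte classes Zeb1 differed by 0.65 and Zeb2 by 0.71. The other 5 EMT factors overlapped, and Twist1 and Snai2 were 105 and 27.3 CPM in KPPCN 2 but 24.7 and 4.40 CPM in KPPCN 1. Of all 12556 genes tested 0.0478% (6 genes, all lower) were called, and 16.9% lay above and 22.4% below without overlap. An unadjusted limma p under 0.05 was found for 4 of the 10 members and for 2170 of the 12556 genes.

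Genes known to lie downstream of these factors, from a list of 24 epithelial genes repressed by ZEB or SNAIL proteins or kept on by GRHL2, were lower in KPPCN tumour-lineage cells together with Grhl2 and Klf5. All 24 lay below without overlap, against 25.1% of all genes tested, and 15 were called lower, against 3% called in either direction. The median difference of the 24 was −2.53. The tight junction gene Cldn4, whose promoter is printed above, read 287, 919 and 800 scaled CPM in KPPC and 23.2 and 9.14 scaled CPM in KPPCN 1 and 2 (−4.92, limma adjusted p = 0.0415). Epcam, an epithelial adhesion molecule, read 715, 1537 and 1272 scaled CPM against 68.9 and 21.2 scaled CPM (−4.68, limma adjusted p = 0.0415). Cldn7 and the trafficking GTPase gene Rab25 were called lower as well, by −4.12 and −3.65. The levels of all 4 were lower in KPPCN 2 than in KPPCN 1, as for Elf3 and Grhl2. Of this list Epcam, Cdh1, Cldn3, Cldn4, Cldn7, Krt8, Krt18 and Krt19 are also markers used to name the epithelial-like clusters, and the share of those cells moved with genotype. The fall of the list in these sums therefore cannot be told apart from that share.

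Over all genes tested in tumour-lineage cells 25.1% lay below and 21.1% above without overlap, and 3% were called. Of 24 other regulators of epithelial identity 18 were tested in these cells, 16 lay below without overlap, 4 were called lower and the median difference was −1.21. The called genes included Ehf, an ETS factor related to Elf3 (−3.15), the splicing regulator Esrp1 (−2.83) and Ovol1 (−1.95), which represses EMT factors. Of 23 mesenchymal genes raised in EMT 22 were tested, 16 lay above without overlap and 1 was called, the collagen crosslinking enzyme gene Loxl2, at 29.1, 22.8 and 11.3 scaled CPM in KPPC against 126 and 431 scaled CPM in KPPCN (3.27, limma adjusted p = 0.0491). Their median was 1.67, and Hmga2 on this list also names the clusters. A list of 26 other EMT-linked regulators had 22 tested and a median of 0.12, with Foxq1 the 1 called gene, which fell by 3.97 (limma adjusted p = 0.0415). Foxq1, a forkhead factor, was also lower over all cells (−3.07, limma adjusted p = 0.0433).

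Within the separate populations the medians of the same lists lay nearer 0, a difference that was not tested. In epithelial-like cells the 24 epithelial genes had a median of −0.17 with 0 called by limma, 5 below and 2 above without overlap, the mesenchymal list a median of 0.25 and the other epithelial regulators −0.02, against −0.05 for all genes tested. Over all genes tested in these cells 21% lay below and 14.9% above without overlap, and 1251 had an unadjusted limma p under 0.05. In the Cdkn2a/Hmga2 clusters 10 of 19 epithelial genes lay below without overlap (median −0.71) and 12 of 22 mesenchymal genes above (median 0.98). Limma called 0 in either list, and 773 genes had an unadjusted limma p under 0.05 over all tested. Over all genes tested in these clusters 10.6% lay below and 11.8% above without overlap. Loxl2 was again the widest mesenchymal difference there, at 33.1, 50.9 and 44.4 scaled CPM in KPPC against 139 and 442 scaled CPM in KPPCN (2.43, limma adjusted p = 0.478). In fibroblast-like cells 12 of 18 epithelial genes lay below without overlap (median −0.54), against 12.8% of all genes tested. The mesenchymal list had a median of −0.02 there. Cldn4 was called (−1.98, limma adjusted p = 0.0304), as were 0.0509% of all genes tested. It read 16.9, 26.3 and 18.6 scaled CPM in KPPC and 1.87 and 0.597 scaled CPM in KPPCN. The part of free RNA from epithelial cells in the Cldn4 value was not tested.

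Detection of both kinds of factor in 1 cell was counted after thinning to 1000 UMIs. In epithelial-like cells 45.5, 39.7 and 41.6% of cells in KPPC C3, D3 and H2 and 45.7 and 42.9% in KPPCN 1 and 2 had a UMI of a keeper and none of an EMT factor, and 0.204, 1.06, 1.02, 0 and 0% had both. In the Cdkn2a/Hmga2 clusters 26.4, 20.9, 25.4, 26.9 and 38.0% had an EMT factor alone, 5.28, 11.9, 15.9, 4.59 and 4.92% a keeper alone and 2.11, 1.49, 3.17, 0.707 and 3.51% both. KPPCN 2 had the highest share with an EMT factor alone, and the 2 KPPCN libraries had the lowest shares with a keeper alone. Among Cdkn2a/Hmga2 cells with a keeper UMI, an EMT factor was found in 28.6, 11.1, 16.7, 13.3 and 41.7%, and among those without in 28.5, 24.1, 31.4, 28.4 and 41.5%, from 21, 18, 12, 15 and 96 cells with a keeper UMI. The shares were alike in KPPC C3 and KPPCN 2 and lower with a keeper in the other 3 libraries, on few cells. Without thinning, both kinds were found in 85.2, 76.1, 63.5, 40.7 and 77.1% of these cells, so that this share depends on depth. Fibroblast-like cells had both in 0.283 to 3.23% after thinning, against 0.707 to 3.51% in the Cdkn2a/Hmga2 clusters, and the part of free RNA and of doublets was not tested.

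**Figure D4:**
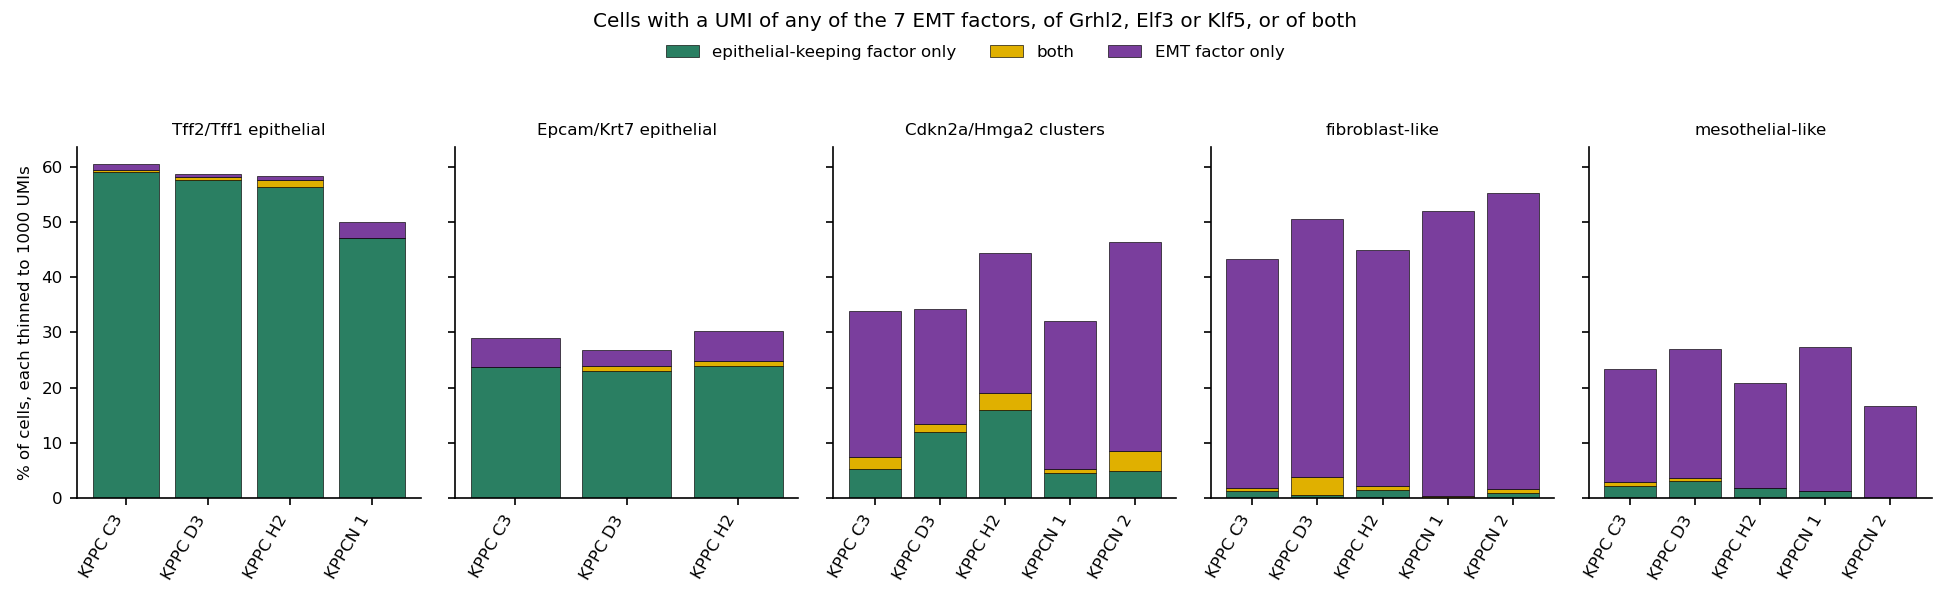
Percent of cells, each thinned to 1000 UMIs, with a UMI of an epithelial-keeping factor only, of both kinds or of an EMT factor only, by library in 5 cell populations (stacked bars). Keepers alone fill 47.1 to 59.1% of the Tff2/Tff1 epithelial cluster and 23.1 to 23.9% of the Epcam/Krt7 epithelial cluster. EMT factors alone fill 20.9 to 38.0% of the Cdkn2a/Hmga2 clusters, and Snai2 and Twist2 are missing from 1 and 2 KPPC libraries.

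The Tff2/Tff1 and Epcam/Krt7 clusters again differed within each KPPC tumour. A keeper alone was found in 59.1, 57.6 and 56.4% of thinned cells of the Tff2/Tff1 cluster in KPPC C3, D3 and H2 and in 23.7, 23.1 and 23.9% of the Epcam/Krt7 cluster. An EMT factor alone was found in 0.997, 0.573 and 0.752% of the former and 5.38, 2.92 and 5.41% of the latter. Both shares were separated without overlap in the 3 tumours. A further, shallow epithelial-like cluster held 66 cells of KPPC D3 with a median of 987 UMIs, and among the 32 deep enough for thinning 12.5% had an EMT factor alone, 40.6% a keeper alone and 9.38% both.

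Genes with patterns most like each member were ranked by Pearson correlation over 32 sums of a named class in a library, from 10 classes, among 11399 genes. The Cdkn2a/Hmga2 clusters and the clusters without a name are not among these sums. These sums share libraries and classes, so that the values are descriptions with no test. Grhl2 was most like Tmc5 (r = 0.985), Rasef (0.982) and Ehf (0.973), Elf3 most like Onecut2 (0.977), Prom1 (0.976) and Erbb3 (0.970), and Klf5 most like the junction genes Cgn (0.944), Epb41l4b (0.937) and Dsp (0.936). The keepers also resembled each other, with r = 0.907 for Grhl2 and Elf3, 0.892 for Elf3 and Klf5 and 0.873 for Grhl2 and Klf5. The EMT factors did not form 1 group as tight as this. Pairs without Zeb1 ranged from r = 0.424 to 0.899 and pairs with it from 0.173 to 0.520, over 19 to 32 sums. Twist1 and Prrx1 were alike (r = 0.899), with Sdc2 (0.956) and Col12a1 (0.937) nearest Twist1 and Olfml2b (0.956) and Dact3 (0.956) nearest Prrx1. Zeb1 and Zeb2 were hardly alike (r = 0.184): Zeb1 was nearest the thromboxane receptor gene Tbxa2r (0.869) and Arhgap31 (0.830), and Zeb2 nearest Plxdc2 (0.870) and the receptor kinase gene Axl (0.857). Snai1 was nearest Slc36a4 (0.946) and Tfpi (0.907), Snai2 nearest Tfpi2 (0.892 over 25 sums) and Twist2 nearest Jph2 (0.862 over 19 sums). Against the keepers every EMT factor had a negative r. Zeb1 ran opposite most strongly, with r = −0.758 to Klf5, −0.730 to Elf3 and −0.724 to Grhl2. Snai1 had r from −0.585 to −0.452 and Zeb2 from −0.536 to −0.417. The weakest pair was Twist1 and Klf5 (r = −0.044).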

How the data were processed

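Tumour cells were profiled with the 10x Genomics 3′ V3 chemistry, per the labels' protocols. The labels give 3 mice of each genotype, and 3 KPPC and 2 KPPCN libraries were analysed here. Seurat 3.0.2, R 3.5.1, Cell Ranger 2.1.0 and the build GRCm38 stand in the submitters' processing notes, without their roles. The authors deposited each value as a natural log, ln(1 + UMIs per 10000), as the sums of each cell show, and division by the smallest step of a cell gave whole UMIs for 100% of values (within 0.01 UMI). Because the tables hold log values, the planned count models were replaced by limma 3.58.1 (R 4.3.3) on log2(CPM + 5) of UMIs summed per library and population, for libraries with at least 20 cells, with trimmed-mean scaling (30% and 5% trims), precision weights, a moderated trend and Benjamini-Hochberg adjustment at 0.05 over all genes tested. A gene needed 10 UMIs at the median total in 2 libraries and 15 in all. The procedure was tested on simulated data. Column names tie the KPPCN libraries to their samples, and the 3 codes of the KPPC columns to the genotype alone. Each library was taken as 1 mouse, and p-values measure the spread between these 5 libraries.

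Barcodes under 500 genes (801 of 17771) and 95 called doublets (0.56%; the caller found 3.57 to 24.7% of its simulated doublets, so many can remain) were left out. Thinning to 1000 UMIs left out 539 shallower cells (386 of KPPCN 1). Depth per library was 80354297, 75551147 and 50591482 UMIs in KPPC C3, D3 and H2 and 27273788 and 53059254 UMIs in KPPCN 1 and 2. Cells were clustered with scanpy 1.11.5 and leidenalg 0.10.2 on 2000 variable genes, 30 components and 15 neighbours at resolution 1, with the 10 members left out, which gave 28 clusters. A cluster was named from the markers of 15 classes when the best class scored 0.9, led by 0.5 and had 4 markers raised 2-fold, a rule set after the clusters had been seen, and differences from the study's own classes may come from these rebuilt names. A cluster led by Cdkn2a with 0.209 of the median UMIs of its libraries (218, 12, 15, 26 and 318 cells in KPPC C3, D3 and H2 and KPPCN 1 and 2) and the insulin cluster (144, 194, 238, 48 and 19 cells) stayed outside both tumour-lineage populations. All 10 members are named in the text, with up to 4 genes per list and population by the largest difference (Ovol1, a called epithelial regulator, was named after its values were seen) and the genes most like each member. The members and lists were chosen with earlier results of these data known. Promoters were searched in RefSeq sequences. Some items are not reported here. Alternatives covered the pseudocount, scaling, filters, weights, thinning, clustering and each library left out.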

Additional observations from a re-analysis of the deposited data

Results flagged for a closer look

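Snai2 moved in opposite directions between cell classes in the libraries in which it was measured. The KPPCN minus KPPC log2 difference was 0.61 in epithelial-like cells and 0.46 in mesothelial-like cells, where after scaling both KPPCN libraries lay above the 2 measured KPPC libraries, and −0.50 in fibroblast-like cells, where both lay below. The difference between the classes was not tested. Snai2 was not measured in KPPC H2, where every gene kept was found in at least 47 cells. A low level in that library may thus have been left out, which would bear on the fall in fibroblast-like cells. The KPPCN values of Snai2 in epithelial-like cells rest on 3 UMIs and 1 UMI.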

How the results depend on the processing

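The 879 alternatives gave the same direction and the same side of the threshold 769 times. The differences of Klf5 and Grhl2 in tumour-lineage cells stayed below 0 in each, but their calls did not stay. Klf5 was no longer called with at least 1000 genes per cell (−1.29) or at resolution 0.5 (−1.29), and its adjusted p ranged from 0.0104 to 0.193. Grhl2 was no longer called with a pseudocount of 1 (−2.82), total UMIs only (−1.51), no filter on low counts (−1.53), no precision weights (−1.51), at least 1000 genes per cell (−1.50) or resolution 0.5 (−1.49), and its adjusted p ranged from 0.0220 to 0.204. The cause was not tested. With cells thinned to 1000 UMIs limma called Elf3 (−3.63), Zeb1 (1.51), Zeb2 (1.95) and Prrx1 (2.36) in tumour-lineage cells. Leaving out each library gave −1.38 to −1.21 for Klf5 and −1.75 to −1.31 for Grhl2, and where this left 1 KPPCN library it was assumed to vary like the others.

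The number of genes called moved widely. In tumour-lineage cells it was 127 with a pseudocount of 1, 230 with total UMIs, 758 after thinning, 5 with at least 1000 genes and 3 at resolution 0.5, and leaving out each library gave 0 to 3616 (502 without KPPC C3, 0 without D3, 1 without H2, 3616 without KPPCN 1 and 9 without KPPCN 2). Over all cells it was 133 after thinning and 3 outside leukocyte classes, and 0 to 4364 with a library left out. In epithelial-like cells it was 349 after thinning and 0 to 4 with a library left out, and in the Cdkn2a/Hmga2 clusters 0 to 432. In fibroblast-like cells it was 2 after thinning, 3 with at least 1000 genes, 14 at resolution 2 and 0 to 56 with a library left out. In mesothelial-like cells it was 4 with a pseudocount of 1, 1 without the filter, without weights and at resolution 0.5, and 0 to 39 with a library left out.

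Signs reversed for uncalled members near 0. Twist2 over all cells was −0.013 with a pseudocount of 1 and −0.021 after thinning, and Zeb1 in epithelial-like cells −0.019 with at least 1000 genes. Prrx1 in the Cdkn2a/Hmga2 clusters was 0.92 after thinning, and Snai1 in fibroblast-like cells −0.27 after thinning and −0.015 at resolution 2. In mesothelial-like cells Zeb1 was −0.62 after thinning, Zeb2 0.20 and Twist2 −0.24 at resolution 0.5, and Snai1 −0.083 when the members entered the clustering. Prrx1 there was −0.0089 without weights, −0.68 after thinning, −0.26 with at least 1000 genes and −0.19 with the members. With a library left out, ranges that crossed 0 were, over all cells, −0.14 to 1.60 for Snai2 and −0.23 to 1.60 for Twist1. In epithelial-like cells they were −0.36 to 0.041 for Elf3 and −0.49 to 0.046 for Grhl2. In the Cdkn2a/Hmga2 clusters they were −0.62 to 0.20 for Prrx1, −0.088 to 0.61 for Snai1, −0.20 to 1.60 for Snai2, −0.46 to 0.62 for Twist1, −0.14 to 0.44 for Zeb1 and −0.046 to 0.91 for Zeb2. In fibroblast-like cells they were −1.03 to 0.19 for Klf5, −0.40 to 0.19 for Prrx1, −0.55 to 0.91 for Snai1 and −0.75 to 0.37 for Twist1. In mesothelial-like cells they were −1.09 to 0.34 for Klf5, −0.79 to 0.72 for Prrx1, −0.32 to 0.45 for Snai1, −0.79 to 0.015 for Twist1 and −0.043 to 0.40 for Zeb1. The share of cells with Snai1 ranged from −0.12 to 1.13 percentage points.

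No paired analysis was possible because the KPPC columns carry codes and no replicate numbers. Few UMIs limit Snai1, Snai2 and Grhl2 in the 46 and 21 epithelial-like cells of KPPCN, and Snai2 and Twist2 are limited by the KPPC libraries in which they were not measured.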
